A study of Mus musculus with 2 samples.

Results

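Genes that macrophages use to take up, store, digest and export lipid were followed across the CD45+ cells of B16 tumours: Apoe, Trem2, Lpl, Lipa, Gpnmb, Abca1, Abcg1, Fabp4, Fabp5 and Plin2. The members were looked up by gene symbol, and all 10 were found once each among the 31053 genes of the deposited count matrix. They had been chosen with earlier results of these data known. B16 is a mouse melanoma line that grows as a tumour in C57BL/6 mice. The study made 2 single-cell libraries, 1 from Mettl3 fl/fl Lyz2+/+ mice (labelled WT) and 1 from Mettl3 fl/fl Lyz2cre/+ mice (labelled KO), all 8 weeks old, so both groups carry the floxed Mettl3 alleles and only the second carries Cre. Mettl3 encodes the catalytic subunit of the RNA m6A methyltransferase. The Cre is driven from the Lyz2 locus, which is active in monocytes, macrophages and granulocytes and in some dendritic cells, so deletion is not confined to macrophages. Live cells were sorted by CD45 and 7-AAD, a dye that enters dead cells, and each library pooled cells of several mice.

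Macrophages in tissue take in lipoproteins and dying cells and must handle the cholesterol and fatty acids that come with them. Lysosomal acid lipase frees cholesterol from its esters, ABC transporters pass the excess to apolipoproteins for export, fatty acid binding proteins carry fatty acids through the cytosol, and surplus lipid is kept in droplets coated by perilipins. Macrophages that express this programme together with the receptor Trem2 and the glycoprotein Gpnmb are known as lipid-associated macrophages in fat, atherosclerotic plaques and tumours.

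The matrix held 5895 barcodes and 45963969 UMIs (unique molecular identifiers, 1 per captured transcript) for the library labelled WT, and 8446 barcodes and 54052317 UMIs for the library labelled KO. After filters 5405 and 7625 cells remained, with medians of 4148 and 3567 UMIs per cell, and 13 barcode sequences occurred in both libraries. Cells were assigned to classes by marker genes that include none of the 10 members. Of the 11 classes with at least 50 cells in each library, macrophage-gated cells (C1qa, C1qb, C1qc, Adgre1, Mrc1, Ms4a7, Csf1r and others) numbered 1678 and 2127, and monocyte-gated cells (Ly6c2, Plac8, Ccr2, Vcan, Chil3 and others) 895 and 2408. Each class is called below by its gate, and the class gated as type 2 dendritic cells, which rested on Cd209a and Flt3 alone, is called Cd209a+ cells. In each class the 10 genes with the highest fold over the other cells held more of the class's own markers than of any other class. The cells were assigned by most of these same markers, so this count does not check the class names. Levels are given as counts per 1000000 UMIs of the class (CPM), and the counting intervals (95%, exact) cover counting error only. With 1 library per genotype there is no replicate, so no difference between the libraries could be tested, and the values compare these libraries rather than the genotypes. Summed levels also do not tell apart more cells with a transcript from more transcripts per cell, and the share of cells is given where it matters.

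Mettl3 itself was not lower in the library labelled KO. Macrophage-gated cells held 9.82 CPM (8.46 to 11.4) when labelled WT and 10.8 (9.30 to 12.4) when labelled KO, a log2 ratio of 0.13 (-0.17 to 0.43). Monocyte-gated cells held 10.2 and 11.8 CPM. The reads come from the 3′ end of the transcript and the position of the deleted part is not given in the sources used here, so these counts do not check the deletion, and the names "labelled WT" and "labelled KO" are used throughout for that reason. Mettl3 also overlaps the gene Tox4. Lyz2, the lysozyme gene whose locus carries Cre in the second genotype, was at 6126 CPM in macrophage-gated cells labelled WT and 2741 in those labelled KO.

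Apoe, Trem2, Lpl, Lipa and Abca1, 5 of the 10 members, had their highest level in macrophage-gated cells in both libraries. The others peaked elsewhere in at least 1 library, Gpnmb in melanoma-gated cells, Fabp5 in mature dendritic cells, Plin2 in granulocytes, Abcg1 in granulocytes labelled KO and Fabp4 in conventional dendritic cells of type 1 (cDC1) labelled KO.

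**Figure D1:**
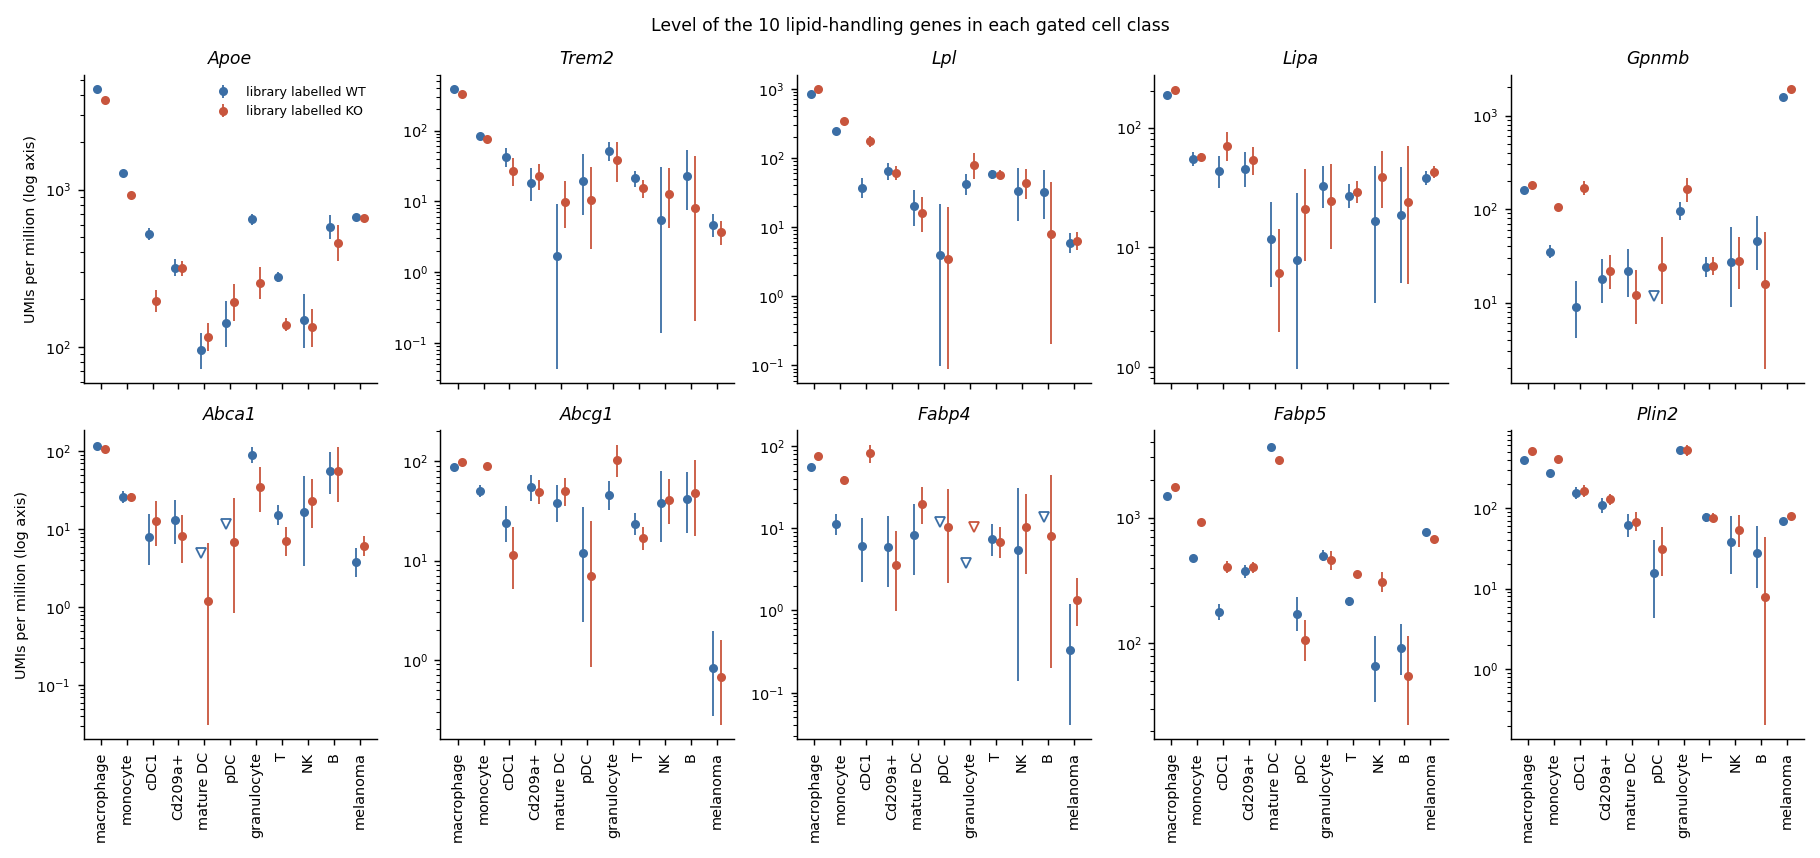
Level of each of the 10 genes in 11 gated cell classes, in CPM on a log axis, for the library labelled WT (blue) and labelled KO (red). Bars are 95% counting intervals, and open triangles mark classes with no UMI, drawn at the level that 3 counts would give; macrophages hold the highest Apoe, Trem2, Lpl, Lipa and Abca1 in both libraries, and melanoma cells hold about 10 times the macrophage level of Gpnmb.

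Apoe (chr7:19696109-19699188, minus strand; mm10, gene models of GENCODE M21), the apolipoprotein that carries cholesterol away from cells, reached 4372 CPM (4342 to 4402) in macrophages labelled WT and 3727 (3699 to 3755) in those labelled KO. Monocytes followed with 1272 and 924, so the macrophage level was 3.44 and 4.03 times higher. Macrophages held 78.8% and 76.2% of all Apoe UMIs in the kept cells. T cells, which should lack Apoe, still showed 277 CPM (258 to 297) and 138 (126 to 152). Their Apoe UMIs per C1qa UMI, 4.48 and 2.07, were above those of macrophages, 1.38 and 1.18, and the source of this RNA was not tested. The T-cell level was lower in the library labelled KO, while C1qa, another abundant macrophage transcript, stood at 61.9 and 66.7 CPM in the same cells.

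Trem2 (chr17:48346401-48354147, plus strand), a receptor for lipids and lipoproteins, was at 383 CPM (374 to 392) in macrophages labelled WT and 324 (316 to 332) in those labelled KO. Its level was 4.59 and 4.33 times that of monocytes and 18.1 and 21.2 times that of T cells. Lpl (chr8:68880491-68907448, plus strand), the lipase that frees fatty acids from circulating lipoproteins, was at 832 (819 to 845) and 992.5 (978 to 1007) CPM, 3.42 and 2.87 times the monocyte level. Lipa (chr19:34492318-34527474, minus strand), the lysosomal acid lipase, was at 187 (181 to 194) and 205 (198 to 212), with monocytes at 54.5 and 56.7. These 3 genes, and Apoe, were carried mainly by macrophages, which held between 70.7% and 82.7% of their UMIs.

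Of the cholesterol exporters, Abca1 had 76.6% and 76.3% of its UMIs in macrophages and Abcg1 66.7% and 53.9%. Abca1 (chr4:53030787-53159895, minus strand), which loads cholesterol onto apolipoprotein A-I, was at 117 CPM (112 to 122) in macrophages labelled WT and 108 (103 to 113) in those labelled KO. Granulocytes labelled WT came next with 90.8 and B cells labelled KO with 55.6. Abcg1 (chr17:31057675-31117988, plus strand), which exports cholesterol to high-density lipoprotein, was at 86.8 and 98.7 in macrophages. The order of the classes was hardly resolved for either exporter: for Abca1 all 10 pairs of neighbouring classes had overlapping intervals in each library, macrophages and the next class included, and for Abcg1 8 of 10 had. Granulocytes labelled KO, at 103.5 CPM of Abcg1 from 234 cells, were within counting error of the macrophages.

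Gpnmb (chr6:49036546-49070929, plus strand) encodes a membrane glycoprotein made by melanocytes and by macrophages under lysosomal load. Melanoma-gated cells, which a CD45 sort would leave out, held 1598 CPM when labelled WT and 1914 when labelled KO, against 159 (153 to 165) and 183 (176 to 189) in macrophages. Melanoma cells, 140 and 226 in number, accounted for 71.0% and 71.7% of all Gpnmb UMIs. The proportion to Dct, a melanocyte enzyme gene, differed between these classes: there were 6.69 and 6.65 Gpnmb UMIs per Dct UMI in macrophages, and 0.214 and 0.227 in melanoma cells. T cells stood between, with 1.36 and 1.08, at a Gpnmb level of 23.9 and 24.6 CPM. After each cell was thinned to 1000 UMIs, 12.2% (10.6 to 13.9) of macrophages labelled WT and 12.8% (11.4 to 14.4) of those labelled KO had a Gpnmb UMI, against 1.01% and 2.71% of T cells. Before thinning the shares were 34.3% and 36.5% of macrophages, at median depths of 9090 and 6675 UMIs, and 4.60% and 7.41% of T cells, at median depths of 2388 and 1813.

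The fatty acid binding proteins Fabp4 (chr3:10204088-10208576, minus strand) and Fabp5 (chr3:10012548-10016607, plus strand), neighbours on chromosome 3, had different patterns. Fabp5 was highest in mature dendritic cells, at 3643 CPM labelled WT and 2843 labelled KO, and second in macrophages, at 1476 (1459 to 1493) and 1753 (1734 to 1772). Fabp4 was at 55.6 (52.3 to 59.1) and 75.0 (71.0 to 79.0) in macrophages, where 1 cell labelled WT held 197 of the 1041 UMIs. The higher Fabp4 value of cDC1 labelled KO, 81.3 CPM, came from 1 of 63 cells that held 55 of the 64 UMIs, and was 11.9 without it. Plin2 (chr4:86648386-86670060, minus strand), which coats lipid droplets, was at 522 and 524 in granulocytes, 394 (385 to 403) and 512 (501 to 522) in macrophages, and 273 and 403 in monocytes. Granulocytes and macrophages labelled KO therefore did not differ in Plin2 beyond counting error. No Fabp4 UMI was found among 804281 and 289829 UMIs of granulocytes, where the exact upper limits for a count of 0 are 4.59 and 12.7 CPM.

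Within the macrophage gate the members did not rise and fall together. Clusters of the cells, built from variable genes without the members, gave 8 groups of at least 20 macrophage-gated cells in each library. Cluster 0 (294 and 513 cells) was led by Vegfa, Cxcl3, Hilpda, Mmp12, Ndrg1 and Nos2. Cluster 2 (584 and 597 cells) was led by Ch25h, Vcam1 and Slc40a1, cluster 10 (220 and 245) by cell division genes such as Top2a and Mki67, cluster 1 (261 and 323) by Ear2 and Ccr2, and cluster 21 (68 and 78) by Lyve1, Cd5l and Cd163. Cluster 9 (24 and 90) carried interferon response genes. Cluster 13 (69 and 73) was led by T and NK cell genes, and cluster 7 (110 and 170) had medians of only 1003 and 861 UMIs per cell. The last 2 carry no class name, and the ratios without them are given with the other alternatives. When whole clusters are named, clusters 0, 2, 10 and 21 are macrophage and clusters 1 and 9 monocyte. Counts over the 8 clusters below therefore include macrophage-gated cells of clusters that do not carry the macrophage name.

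Gpnmb, Fabp4, Fabp5 and Plin2 had their highest level in cluster 0 in both libraries. Gpnmb was at 453 CPM in cluster 0 labelled WT and 458 labelled KO, and its highest cluster exceeded its lowest 16.4 and 18.0 times. Fabp4 was at 218 and 238 in cluster 0 and at most 82.5 in any other cluster of either library. Fabp5 reached 3184 and 3246 there, against 1342 and 1573 in cluster 2. Plin2 reached 723 and 919, against 341 and 404 in cluster 2, though its interval overlapped that of cluster 9 in the library labelled WT.

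Trem2 and Lpl instead peaked in cluster 2, at 469 and 422, and 995 and 1171 CPM. Lipa was at 204 (193 to 214) and 241 (229 to 254) there, with intervals that overlapped those of other clusters, such as cluster 21 at 200 (160 to 247) and 230 (188 to 279). Apoe peaked in cluster 21, at 7534 and 6060, and was lower in cluster 0, at 3375 and 2484, than in cluster 2, at 5417 and 5444. Abcg1 was highest in cluster 9, at 180 and 168, with intervals that overlapped those of cluster 0. Abca1 was highest in cluster 0 labelled WT, at 213, and in cluster 21 labelled KO, at 210, with overlapping intervals of these clusters, and was lowest in cluster 1, at 22.2 and 17.3. The cluster with the most Gpnmb and Fabp4 was thus not the one with the most Apoe or Trem2.

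**Figure D2:**
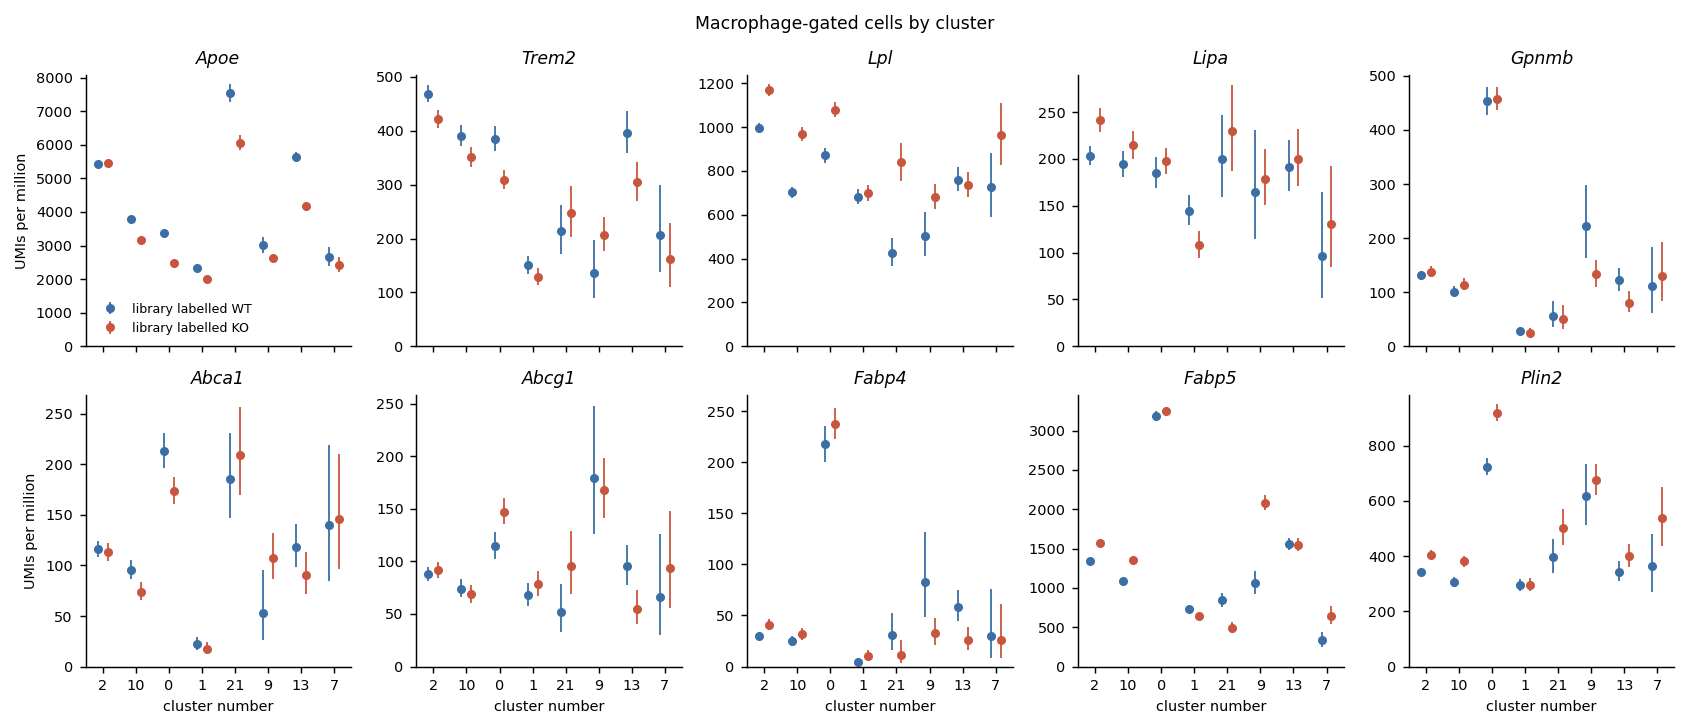
Level of each gene in the 8 clusters of macrophage-gated cells, in CPM on linear axes from 0, for the library labelled WT (blue) and labelled KO (red), with 95% counting intervals. Gpnmb, Fabp4, Fabp5 and Plin2 stand highest in cluster 0 in both libraries, Trem2 and Lpl in cluster 2, and Apoe in cluster 21.

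Promoter sequence was available for 6 of the 10 members, Apoe, Trem2, Lipa, Gpnmb, Abca1 and Plin2, in 8 RefSeq windows (GRCm38.p6) that run from 250 bases before to 50 bases after a transcript start. The other 4 genes are Lpl, Abcg1, Fabp4 and Fabp5. Both strands were searched for 5 short motifs. CACGTG, the E-box bound by MiT family factors such as TFEB and MITF, was in Abca1 and Plin2 and in 7.15% of all 32851 windows. It contains ACGTG, the core of the hypoxia response element, which was in the same 2 members and in 19.6% of all windows. TGANTCA, the AP-1 motif, was in Gpnmb and Trem2 and in 7.81% of all windows. AGGTCA, the nuclear receptor half-site, was in Trem2 and Plin2 and in 16.3% of all windows. Its direct repeat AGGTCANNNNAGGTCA, the form known for liver X receptors, was in only 0.0152% of all windows and in none of the 8. The windows around 4 matches are shown because Gpnmb and Plin2 shared their highest cluster, while Trem2 peaked in another and Abca1 was high in 2. Capitals mark the match, each line reads 5′ to 3′ on the strand of the gene, and up to 35 bases are shown on each side, ending at the latest 20 bases after the start although the search ran to 50. Bases are counted from the RefSeq start, which for Gpnmb is base 49036518, before the GENCODE start given above.
Gpnmb, chr6:49036491-49036537, plus strand, AP-1 match from base 9 after the start: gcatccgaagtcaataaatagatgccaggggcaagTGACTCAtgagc
Trem2, chr17:48346357-48346420, plus strand, AP-1 match from base -9: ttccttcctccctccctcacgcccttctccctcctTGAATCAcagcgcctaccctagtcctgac
Plin2, chr4:86670040-86670098, minus strand, E-box from base -4: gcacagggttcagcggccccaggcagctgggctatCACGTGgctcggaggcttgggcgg
Abca1, chr4:53160002-53160077, minus strand, E-box from base -147: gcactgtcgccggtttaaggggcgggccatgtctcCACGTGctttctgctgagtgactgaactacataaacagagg
Gpnmb and Trem2, which share the AP-1 letters, peaked in different clusters. Plin2 and Abca1, which share the E-box, were both highest in cluster 0 when labelled WT, where Abca1's interval overlapped that of cluster 21, and in clusters 0 and 21 when labelled KO. Such letters occur in many other promoters, and the matches are descriptions only.

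Macrophages with a Gpnmb UMI also held more of the other members. In cells thinned to 1000 UMIs, 193 macrophages labelled WT had a Gpnmb UMI and 1390 had none, and 253 and 1718 of those labelled KO. Median depths before thinning were close, 9954 and 9698 UMIs labelled WT, and 6830 and 7276 labelled KO. Fabp4 was 6.88-fold (4.42 to 10.7) higher in the Gpnmb-positive cells labelled WT and 5.11-fold (3.64 to 7.16) in those labelled KO. Fabp5 was 2.51-fold (2.27 to 2.77) and 2.71-fold (2.50 to 2.92) higher. Abca1 was 1.95-fold (1.39 to 2.70) and 2.40-fold (1.80 to 3.19) higher, and Plin2 1.91-fold and 1.60-fold. Lipa alone had intervals that reached 1 in both libraries, at 1.36-fold (0.950 to 1.91) and 1.20-fold (0.885 to 1.60).

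Part of this remained within a single cluster. Among cluster 0 macrophages, 27.2% labelled WT and 26.6% labelled KO had a Gpnmb UMI, and these held 5.36-fold (2.73 to 11.0) and 2.65-fold (1.77 to 3.97) more Fabp4, and 1.66-fold (1.42 to 1.92) and 1.86-fold (1.68 to 2.06) more Fabp5. Trem2 was at 1.14-fold (0.722 to 1.75) and 1.92-fold (1.34 to 2.74) there, and Lpl, whose intervals reached 1, at 0.743-fold (0.528 to 1.03) and 1.08-fold (0.874 to 1.34). In cluster 2 the shares with a Gpnmb UMI were 10.9% and 11.2%. Fabp4 was 7.56-fold (3.15 to 18.0) and 2.92-fold (1.04 to 7.25) higher in those cells, and Fabp5 2.39-fold (1.99 to 2.86) and 1.66-fold (1.37 to 2.01). Trem2 was 1.55-fold (1.11 to 2.13) and 2.38-fold (1.72 to 3.24) higher, and Lpl 1.44-fold (1.14 to 1.81) and 1.37-fold (1.11 to 1.69).

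**Figure D3:**
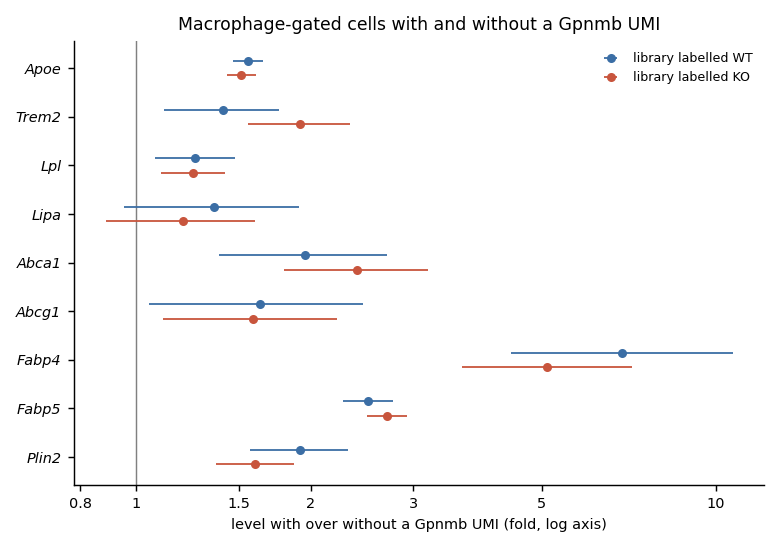
Fold of each of the other 9 members in macrophage-gated cells with a Gpnmb UMI over those without, on a log axis, each cell thinned to 1000 UMIs, for the library labelled WT (blue) and labelled KO (red) with 95% counting intervals. Fabp4 stands farthest from 1, at 6.88 and 5.11, and Lipa's intervals reach 1.

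Between the libraries, no member passed 1.5-fold in macrophage-gated cells in either direction. Of all 2819 genes at 50 CPM or more, 1.14% passed 1.5-fold upwards and 0.284% downwards, so a list of 10 with none past it does not stand out from the rest. The counting intervals are narrow at this depth, 18727744 and 18223676 UMIs in all, and those of all 10 members excluded 0. In macrophages labelled KO 7 members were higher and 3 lower. The median log2 ratio of the members was 0.19, against 0.01 over all genes tested.

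Fabp4 had the largest difference, a log2 ratio of 0.43 (0.31 to 0.55), from 55.6 to 75.0 CPM. Without the cell with the most Fabp4 UMIs in each library it was 0.68, past 1.5-fold. With each of the 8 clusters given the same weight it turned to -0.20, and that of Gpnmb turned from 0.20 (0.13 to 0.27) to -0.12, and neither gene differed between the libraries beyond counting error within cluster 0. Of the 8 clusters, Gpnmb was higher beyond counting error in 0 and lower in 2, and Fabp4 was higher in 2 and lower in 2. Plin2, at 0.38 (0.33 to 0.42), Lpl, at 0.25 (0.22 to 0.29), and Fabp5, at 0.25 (0.22 to 0.27), were higher in macrophages labelled KO under all 13 alternatives run for each. Within the 8 clusters, Plin2 and Lpl were each higher beyond counting error in 6 and lower in none. Fabp5 was higher in 4 and lower in 2, cluster 1, at -0.19 (-0.30 to -0.085), and cluster 21, at -0.79 (-1.04 to -0.54), and in cluster 0, where its level peaked, its interval reached 0, at 0.028 (-0.012 to 0.067).

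Lipa, at 0.13 (0.06 to 0.20), and Abcg1, at 0.19 (0.09 to 0.28), were slightly higher. Within the 8 clusters Lipa was higher in 1 and lower in 1, cluster 1, at -0.41 (-0.67 to -0.16), and Abcg1 was higher in 2 and lower in 1, cluster 13, at -0.79 (-1.31 to -0.28). The 3 lower members were Apoe, at -0.23 (-0.24 to -0.22), Trem2, at -0.24 (-0.29 to -0.19), and Abca1, at -0.12 (-0.21 to -0.03). The clusters filled the macrophage gate in different proportions, with cluster 0 at 17.5% labelled WT and 24.1% labelled KO, cluster 2 at 34.8% and 28.1%, and cluster 9 at 1.43% and 4.23%. Apoe was lower in 6 of the 8 clusters, but in cluster 2 its interval reached 0, at 0.0073 (-0.014 to 0.028). Trem2 was lower in 4 and higher in cluster 9, at 0.61 (0.023 to 1.24), and Abca1 was lower in 2 and higher in 1. Apoe was also lower in T cells labelled KO, at 277 and 138 CPM, and the part of RNA from other cells in the macrophage value was not tested. Summed monocyte markers moved too, from 702 to 1125 CPM in the macrophage gate, and granulocyte markers from 504 to 191, with none of the 9 and 8 markers at 0; their part in the ratios was not tested.

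**Figure D4:**
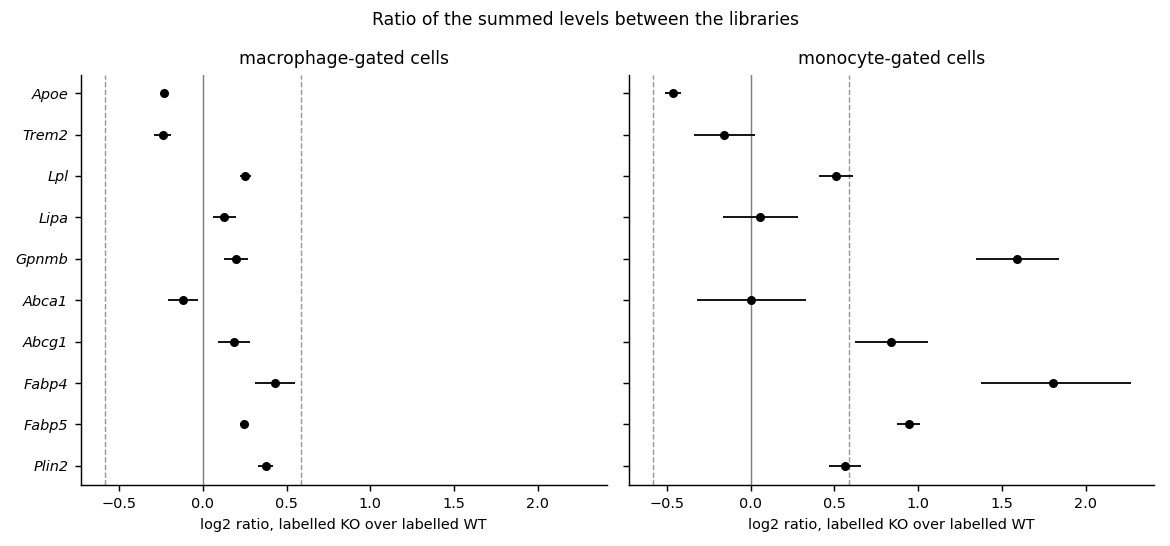
Log2 ratio of the library labelled KO over that labelled WT for each of the 10 genes in macrophage-gated (left) and monocyte-gated (right) cells, with 95% counting intervals; dashed lines mark 1.5-fold. All 10 macrophage values lie inside the lines, and Gpnmb, Abcg1, Fabp4 and Fabp5 lie beyond them in monocytes.

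Monocyte-gated cells differed more. Of the 10 members, 4 passed 1.5-fold upwards in the library labelled KO and none downwards, where 3.17% of 2967 genes at 50 CPM or more passed upwards and 0.404% downwards. That level was reached by 8 members in at least 1 library, of which 3 passed; Fabp4 and Abca1 did not reach it. Gpnmb reached it only in the library labelled KO, so it could hardly pass the filter without differing.

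Gpnmb was at 34.99 CPM (29.7 to 41.0) in monocytes labelled WT and 105 (98.9 to 112) in those labelled KO, a log2 ratio of 1.59 (1.34 to 1.84). The WT-labelled level was close to that of T cells, 23.9 CPM, while that of monocytes labelled KO, taken as a whole, was above the 24.6 of their T cells. Cluster 0 gave 649 of the Gpnmb UMIs labelled KO, and in clusters 1, 3 and 4 the level labelled KO was 24.3, 20.3 and 21.9 CPM, at or below that of T cells. The count of Gpnmb UMIs per Dct UMI was 1.69 and 4.64, and summed melanoma markers were at 86.1 and 86.8 CPM. In the same gate summed markers of plasmacytoid dendritic cells went from 434 to 680 CPM and those of granulocytes from 268 to 171, with none of the 6 and 8 markers at 0. The 6 include Bst2, which was left out of the gate because other classes share it. The part of these markers in the ratios was not tested. In thinned cells 3.14% (2.08 to 4.53) of monocytes labelled WT and 6.84% (5.84 to 7.94) of those labelled KO had a Gpnmb UMI.

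Fabp4 was at 11.1 (8.24 to 14.7) and 39.0 (35.2 to 43.1) CPM, a log2 ratio of 1.81 (1.38 to 2.27). This ratio was 0.61 with each cell thinned to 1000 UMIs, 1.17 as the mean of per-cell levels and 1.12 with classes named from whole clusters. Few cells carried it: 24 of 895 and 107 of 2408 monocytes had a Fabp4 UMI, 1 cell labelled KO held 61 of 380, and in thinned cells the shares were 1.51% (0.806 to 2.57) and 2.03% (1.498 to 2.70), with overlapping intervals, against 0.169% and 0.302% of T cells. Fabp5 rested on many more UMIs, 2102 and 8962, and was at 478 (457 to 498) and 919 (900.1 to 938) CPM, a log2 ratio of 0.94 (0.88 to 1.01). Abcg1 was at 50.2 (43.8 to 57.3) and 89.8 (84.0 to 96.0), a log2 ratio of 0.84 (0.62 to 1.06), but within 1.5-fold with each cell thinned to 1000 UMIs (0.57) and with classes named from whole clusters (0.56).

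Plin2, with a log2 ratio of 0.56 (0.47 to 0.66), and Lpl, with 0.51 (0.41 to 0.61), were higher but within 1.5-fold, and just past it with a stricter gate, at 0.59 and 0.60. Of the 6 clusters of the monocyte gate, Plin2 was higher beyond counting error in 3 and lower in cluster 3, at -0.35 (-0.62 to -0.074), and Lpl was higher in 4 and lower in cluster 7, at -1.47 (-2.48 to -0.50). Apoe was lower, at -0.46 (-0.51 to -0.41). Trem2, Lipa and Abca1 had intervals that reached 0, at -0.16 (-0.34 to 0.03), 0.06 (-0.16 to 0.28) and 0.00 (-0.32 to 0.33). The genes that were higher thus did not include Trem2, the receptor, or Lipa, the lysosomal lipase. Near the boundary between the 2 gates lay 38 and 92 monocytes.

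The clusters filled the monocyte gate in different proportions in the 2 libraries. Cluster 0 gave 8.16% of the monocyte gate in the library labelled WT and 15.7% in that labelled KO, and cluster 9, with the interferon response genes, gave 5.70% and 12.5%. Within cluster 0, Gpnmb was still higher in monocytes labelled KO, at 145 and 342 CPM with a log2 ratio of 1.24 (0.88 to 1.62), as were Fabp4, at 1.27 (0.60 to 2.01), and Fabp5, at 0.83 (0.70 to 0.95). In cluster 1, Abcg1 had a log2 ratio of 1.16 (0.65 to 1.69) and Gpnmb 1.25 (0.38 to 2.21), the latter from 14 and 55 UMIs at 10.2 and 24.3 CPM, neither above the T-cell level. In clusters 3 and 4, led by Ace and Nr4a1 and by Dmkn and Il1rap, the intervals of Gpnmb, Fabp5 and Abcg1 reached 0. That of Gpnmb also reached 0 in cluster 9, at 0.21 (-0.31 to 0.76), and in cluster 7, which held 1 and 4 Gpnmb UMIs. With each cluster given the same weight the monocyte ratio of Gpnmb was 0.88. Apoe was lower in all 6 clusters. When whole clusters were named by the same markers, so that all of cluster 0 counted as macrophage, the monocyte ratio of Gpnmb was 0.82, that of Fabp5 0.39 and that of Lpl -0.03.

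**Figure D5:**
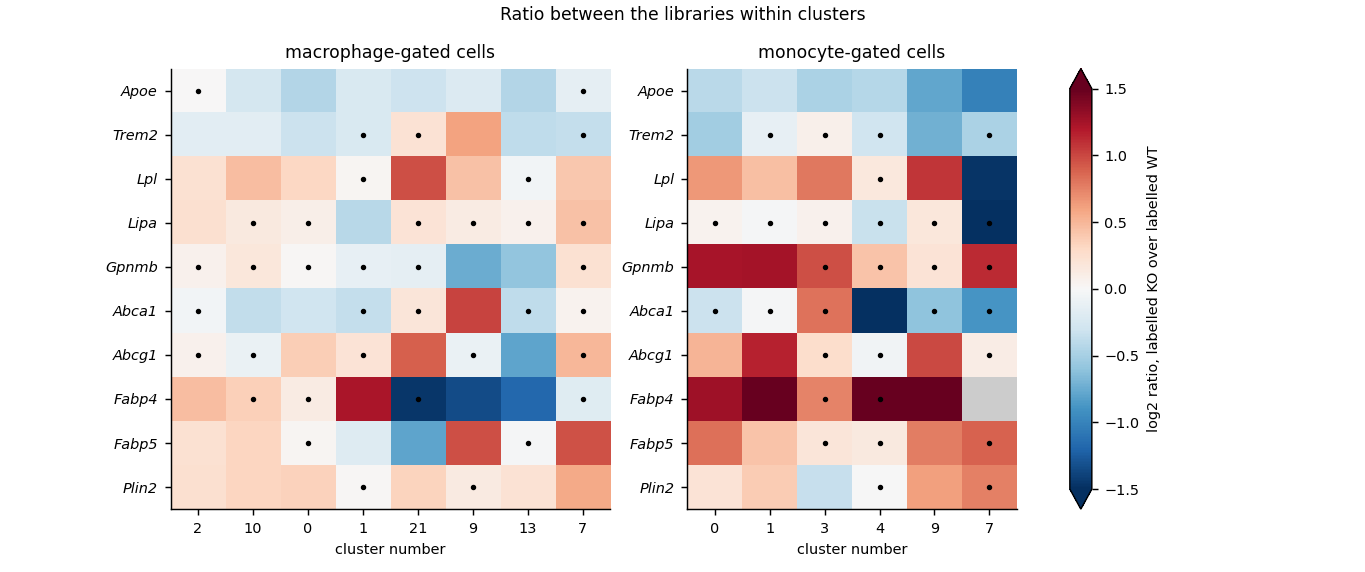
Log2 ratio of the library labelled KO over that labelled WT within clusters of macrophage-gated (left) and monocyte-gated (right) cells, red for higher and blue for lower when labelled KO, with colours ending at 1.5 in each direction. Black dots mark intervals that reach 0 and grey marks a gene with no UMI in 1 library; Gpnmb is dotted in macrophage cluster 0 and dark red in monocyte clusters 0 and 1.

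Except for melanoma-gated cells, with 6038635 and 7439263 UMIs, the remaining classes gave fewer UMIs than macrophages and monocytes. In melanoma-gated cells labelled KO, Gpnmb was higher, at a log2 ratio of 0.26 (0.22 to 0.30), as was Plin2, at 0.20 (0.02 to 0.39). Fabp5 was lower there, at -0.20 (-0.26 to -0.14), and the other members had intervals that reached 0. Fabp5 was lower in mature dendritic cells labelled KO, with a log2 ratio of -0.36 (-0.44 to -0.27), and higher in T cells, at 216 and 353 CPM with a ratio of 0.71 (0.57 to 0.86). The shares of T cells with a Fabp5 UMI were 28.1% and 27.2%, and 10.1% and 13.3% in thinned cells, with overlapping intervals. Of the 1132 UMIs labelled KO, 1 T cell held 175. Without the cell with the most UMIs the levels were 195 and 301 CPM. In NK cells Fabp5 went from 65.8 to 309, but 1 of 176 cells labelled KO held 86 of the 121 UMIs and the level was 92.1 without it. Apoe was lower in granulocytes labelled KO, at 647 and 255 CPM, as was Abca1, at 90.8 and 34.5. Abcg1 was higher, at 46.0 and 103.5, as were Gpnmb, at 95.7 and 162, and Lpl, at 42.3 and 79.4. These 5 had intervals that excluded 0. For Lpl, however, 1 of 234 granulocytes labelled KO held 10 of the 23 UMIs. Without the cell with the most Lpl UMIs the levels were 31.4 labelled WT and 45.7 labelled KO. In cDC1, the values of Gpnmb (9.04 and 168) and Lpl (37.2 and 174) rested partly on single cells, and without the cell with the most UMIs they were 76.1 and 97.9 in the library labelled KO. In Cd209a+ cells, plasmacytoid dendritic cells and B cells no member with UMIs in both libraries had an interval that excluded 0.

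Genes of the surrounding pathways changed as little in macrophages. Among 5 lists of lipid genes, none of the 40 listed genes at 50 CPM or more passed 1.5-fold. Of all 2819 genes at that level, 1.14% passed upwards and 0.284% downwards, so these lists do not stand out from the rest. Of the lipid-associated macrophage co-markers (12 of the 13 in the matrix at that level, median log2 ratio 0.12), 7 were higher beyond counting error and 3 lower. The lower genes, named after their values were seen, were Cd63, at -0.25 (-0.28 to -0.21), Tyrobp, at -0.085, and Hmox1, at -0.048. Itgax, an integrin, had the largest ratio, 0.36 (0.25 to 0.46), followed by the lysosomal protease Ctsl, 0.35 (0.31 to 0.38), and the galectin Lgals3, 0.26 (0.24 to 0.27). Of the liver X receptor and cholesterol efflux list (5 of 16, median 0.08), 1 was higher and 1 lower: the receptor Nr1h3 was at 37.9 and 51.5 CPM, a ratio of 0.44 (0.30 to 0.59), the phospholipid transfer protein Pltp was lower, at -0.22 (-0.30 to -0.15), and the receptor Nr1h2 reached 0, at 0.11 (-0.02 to 0.25). Of the uptake and lysosomal list (14 of 16, median 0.07), 7 were higher and 4 lower, and by size of ratio the scavenger receptor Cd36 was at 0.29 (0.23 to 0.35), the cholesterol carrier Npc2 at 0.28 (0.25 to 0.31) and the saposin precursor Psap at 0.26 (0.25 to 0.27).

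Cholesterol synthesis genes were mostly below that level in macrophages (3 of 16 above it, median -0.06), with none higher beyond counting error and 1 lower. Fdps, an enzyme of the mevalonate pathway, was at -0.14 (-0.27 to -0.004), and the regulator Srebf2, at 0.12, had an interval that reached 0. Fdps was at 53.7 CPM labelled WT and 48.9 labelled KO, so it reached 50 CPM only in the library where it was higher. Of the lipid droplet and fatty acid list (6 of 20, median 0.02), 2 were higher and 1 lower: Hilpda, a droplet protein induced by hypoxia, was at 0.24 (0.15 to 0.33), Acsl4, which activates fatty acids, at -0.16 (-0.28 to -0.04), and the desaturase Scd2 at 0.13 (0.01 to 0.25). In monocytes 4 of the 43 listed genes at 50 CPM or more passed 1.5-fold, all upwards, where 3.17% of all genes passed upwards: Spp1, the secreted protein osteopontin, from 463 to 1199 CPM, the cathepsins Ctsd and Ctsb, with log2 ratios of 0.62 and 0.60, and Cd36, with 0.68.

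Across the 22 profiles of class and library, each member was set beside the 6264 genes at 50 CPM or more in at least 1 profile. Plin2 was most like Cstb (Pearson r = 0.94), Atf3 (0.92) and Hacd4 (0.90), and Abcg1 most like Rap1b (0.93), Il4ra (0.91) and Cdc42 (0.89). Lpl was most like Cndp2 (0.93), Msr1 (0.91), the macrophage scavenger receptor, and Cotl1 (0.89). Trem2 was most like Gas6 (0.91), Pf4 (0.89) and Pla2g15 (0.89), the last a lysosomal phospholipase. Apoe was most like Adam9 (0.88), Sash1 (0.81) and Gnpda1 (0.80), and Lipa most like the lysosomal enzyme gene Hexa (0.82), Cbr2 (0.82) and Lrp12 (0.81).

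For Gpnmb the nearest genes were Bvht, Tfpi (both 0.85) and Tmem251 (0.83), for Abca1 Fam111a (0.85), Tlr4 (0.84) and Lgals9 (0.81), for Fabp5 Dstn (0.88), Anxa4 (0.87) and Rtn4 (0.84), and for Fabp4 Arhgdia (0.79), Pea15a (0.74) and Cmpk1 (0.73). Among the members themselves the closest pair was Trem2 and Lpl (0.82) and the least alike were Gpnmb and Abcg1 (-0.35). The 2 profiles of a class share their cell type, and classes of one library may share free RNA, which was not tested, so these correlations are descriptions.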

How the data were processed

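Single-cell 3′ RNA libraries (10x Chromium v3) of CD45+ B16 tumour cells were compared, 1 labelled WT and 1 labelled KO. The deposited values are UMI counts per gene and cell, which the authors made with Cell Ranger 4.0.0 on mm10. From these counts, cells with at least 200 genes and at most 10% mitochondrial UMIs were kept, after the study's methods. Scrublet's automatic cut marked 1 cell per library, so the highest scores were removed at 0.8% per 1000 cells (256 and 532 cells). Cells were gated by mean log marker expression; the gate's limits and the 22 shared markers left out of it were set after the data had been seen. UMIs were summed per class, without length scaling. Intervals are exact 95% Poisson, binomial or conditional binomial intervals and cover counting error only. Ratios across genes use a pseudocount of 1 CPM (counts per 1000000); those of single genes use none. The across-gene step was checked on simulated counts. Clusters came from Leiden (resolution 1, 30 components, 2000 variable genes; scanpy 1.11.5). TMM (edgeR 4.0.16) and DESeq2 1.42.0 size factors were alternatives. Named genes are all members, 3 per related list by size of ratio in macrophages, and 3 most like each member; the monocyte list genes were named after their values were seen. Members and lists were chosen with earlier results of these data known. Some items of the marker and gene lists are not reported here.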

Additional observations from a re-analysis of the deposited data

Results flagged for a closer look

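Fabp5 moved in opposite directions in different cell classes. Its log2 ratio of the library labelled KO over that labelled WT was 0.25 (0.22 to 0.27) in macrophage-gated cells, -0.36 (-0.44 to -0.27) in mature dendritic cells and -0.20 (-0.26 to -0.14) in melanoma-gated cells. These were singled out because the counting intervals lie on opposite sides of 0. The difference between the classes was not tested, since there is 1 library per genotype.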

How the results depend on the processing

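No paired analysis was possible because each genotype has 1 library and no value comes from a test. Each member's ratio was recomputed under 13 alternatives per gate, of which leaving out cells near the macrophage-monocyte boundary, leaving out clusters with no class name and, in monocytes, equal cluster weights were chosen after seeing the data. In macrophages 101 of 130 values stayed within the counting interval of the reported one and 128 kept its sign. In monocytes 106 of 130 stayed within that interval and 122 kept the sign. Without the clusters that carry no class name, Apoe in macrophages was at -0.21, outside its counting interval, and the other members stayed within theirs. Among members whose reported interval excluded 0, equal cluster weights turned Gpnmb (-0.12) and Fabp4 (-0.20) in macrophages and Lpl (-0.060) in monocytes. Classes named from whole clusters also turned Lpl in monocytes (-0.028). Abca1 and Lipa in monocytes, whose reported intervals reached 0, ranged from -0.52 to 0.23 and from -0.28 to 0.14 over the alternatives. The number of members past 1.5-fold in macrophages was 0, but 1 (Fabp4) with the mean of per-cell levels and 1 (Fabp4) without the cell with the most UMIs. In monocytes it was 4, but 2 with classes named from whole clusters, and ranged from 2 to 6 over all 13 alternatives. The number of members with a ratio above 1 in monocytes was 8, but 5 with equal cluster weights. The members highest in macrophages in both libraries were 5 with doublets kept and 7 with classes named from whole clusters. No list gene passed 1.5-fold in macrophages with the floor at 10 CPM or with equal cluster weights, and the share of all genes past 1.5-fold ranged from 1.31% to 2.08%, against 1.42%. Depth limits the classes outside the macrophage, monocyte and melanoma gates, and no alternative replaces a second library per genotype.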
